A study of Homo sapiens with 6 samples.

Results

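The genes followed here build, hold and surround the photoreceptor outer segment, and their levels were compared across rods, cones and the remaining cells of grafted and cultured human retinal organoids. They were taken by gene symbol, as 10 of the 36601 genes in the deposited matrices: PRPH2, ROM1, PCARE, RP1, RP1L1, PROM1, CDHR1, EYS, IMPG1 and IMPG2. The choice was made with earlier results of these data known. All 10 were found, and all 10 passed the filter on low counts in every comparison.

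The samples were fragments of retinal organoids from WA09 CRX-tdTomato, an established human embryonic stem cell line in which a red fluorescent reporter is driven by CRX, a transcription factor of photoreceptor precursors. The organoids had grown for 113 to 126 days before they were broken up mechanically. Transplanted samples (n = 3) were pieces injected under the retina of normal dogs and taken out 3 days later, and cultured samples (n = 3) were pieces from the same organoid batch, broken up alike, that spent those 3 days in culture. Both groups carry the reporter, all samples derive from this 1 line, and the number of dogs and organoids behind a sample is not given in the sources used here. The experiment was done 3 times, as Sets 1 to 3, each with 1 transplanted and 1 cultured sample, so the Set pairs them. Transplanted samples may hold dog cells, and a filter against them was one of the alternatives tried.

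The outer segment is a stack of membrane discs at the tip of a modified cilium, where light is captured. The tetraspanins PRPH2 and ROM1 curve the disc rims. PCARE, CDHR1 and PROM1 act where new discs evaginate at the base, RP1 and RP1L1 bind the microtubules of the axoneme, and EYS, IMPG1 and IMPG2 lie outside or span the membrane of the cell. Mutations in these genes are known from inherited retinal disease.

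Promoter windows are printed for PCARE, the 1 gene of the 10 whose difference between transplanted and cultured samples passed the test, for PRPH2 as the rim protein beside it, and for CDHR1 and IMPG2, a pair whose levels across classes were nearly parallel. Each window is the 250 bases before the annotated start, on the strand of the gene (RefSeq, GRCh38.p14). Windows were found for 8 of the 10 genes, 12 windows in all, since PROM1 and EYS have several starts. Capitals mark exact matches, on either strand, to TAATCC, the core bound by CRX and OTX2, or to TGCTGA, part of the site bound by NRL and other MAF proteins. The reverse complements read GGATTA and TCAGCA. No match of one motif overlapped a match of the other.
PCARE (chr2:29074524-29074773, minus strand): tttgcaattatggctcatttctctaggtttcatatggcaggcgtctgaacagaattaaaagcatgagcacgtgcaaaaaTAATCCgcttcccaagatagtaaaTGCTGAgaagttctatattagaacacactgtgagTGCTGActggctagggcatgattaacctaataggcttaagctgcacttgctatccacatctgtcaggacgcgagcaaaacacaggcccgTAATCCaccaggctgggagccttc
PRPH2 (chr6:42722598-42722847, minus strand): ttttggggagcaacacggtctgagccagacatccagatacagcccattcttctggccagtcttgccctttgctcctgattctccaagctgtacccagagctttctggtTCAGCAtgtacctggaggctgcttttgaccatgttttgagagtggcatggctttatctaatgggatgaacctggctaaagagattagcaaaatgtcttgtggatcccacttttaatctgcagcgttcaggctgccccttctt
CDHR1 (chr10:84194287-84194536, plus strand): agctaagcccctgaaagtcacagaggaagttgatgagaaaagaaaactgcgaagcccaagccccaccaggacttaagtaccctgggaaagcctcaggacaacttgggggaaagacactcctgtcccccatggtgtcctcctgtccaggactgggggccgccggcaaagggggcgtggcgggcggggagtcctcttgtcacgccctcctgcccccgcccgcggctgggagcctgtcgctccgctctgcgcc
IMPG2 (chr3:101320576-101320825, minus strand): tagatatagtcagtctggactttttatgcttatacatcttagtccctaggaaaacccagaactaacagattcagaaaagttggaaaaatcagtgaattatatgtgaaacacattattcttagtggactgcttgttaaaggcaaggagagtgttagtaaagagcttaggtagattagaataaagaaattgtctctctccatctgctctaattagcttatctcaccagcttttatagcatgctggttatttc

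The PCARE window held TAATCC at 171 and 24 bases before the start and TGCTGA at 147 and 113 bases before it. The PRPH2 window held 1 TGCTGA match, on the reverse strand and 142 bases before the start, and no TAATCC. Neither motif occurred in the CDHR1 and IMPG2 windows. Of 35116 RefSeq windows of this length, 5.62% held TAATCC and 14.0% held TGCTGA. Among the windows not printed, TAATCC occurred once in 1 of the 2 EYS windows and once in 1 of the 4 PROM1 windows, and TGCTGA once in ROM1 and once in 1 PROM1 window. These are matches of letters and were not tested for binding.

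Cells were sorted into classes by 2 transcripts. Rods had at least 3 unique molecular identifiers (UMIs, a count of captured RNA molecules) of NRL, the transcription factor that sets rod fate, and more NRL than PDE6H. Cones had at least 3 UMIs of PDE6H, a subunit of the cone phosphodiesterase, and more PDE6H than NRL. All remaining cells are called other cells here. Transplanted Sets 1, 2 and 3 gave 1597, 170 and 1265 rods, 1258, 34 and 400 cones, and 4466, 486 and 2967 other cells. Cultured Sets 1, 2 and 3 gave 2664, 3044 and 354 rods, 2439, 953 and 126 cones, and 10233, 5747 and 1377 other cells. Between 27.9% and 60.8% of other cells in a sample still held a UMI of CRX, NRL or PDE6H, and a shallow cell misses the gates more easily, so other cells are not free of photoreceptors.

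The files held 6850189 to 45281930 UMIs in transplanted samples and 8000032 to 108222149 in cultured samples. At most 41 kept cell barcodes were shared between a pair of libraries, or at most 0.870% of the smaller one. Many cells held both transcripts. Transplanted Sets 1, 2 and 3 had 1099, 55 and 587 cells with at least 3 UMIs of both NRL and PDE6H. Cultured Sets 1, 2 and 3 had 1031, 1293 and 81. The sum of 10 cone markers in rods was 626 to 1198 CPM in transplanted and 704 to 1218 CPM in cultured samples. That of 11 rod markers in cones was 654 to 1183 CPM in transplanted and 570 to 713 CPM in cultured samples. The cone list holds PDE6H and the rod list NRL, which set the classes, so these sums cannot check the gates. In transplanted Set 1, PDE6H gave 373 of the 626 CPM in rods, and NRL 480 of the 655 CPM in cones. RCVRN, a calcium sensor of all photoreceptors, averaged 1981 ± 634 CPM (counts per 1e6 UMIs of the class) in rods, 1512 ± 441 CPM in cones and 264 ± 105 CPM in other cells (SD, n = 6). SAG, rod arrestin, reached at most 5.22 CPM in any rod sum, so this transcript of mature rods was near 0 and the rods are best read as NRL-high cells. The summed level of 8 dividing progenitor markers lay between 82.2 and 167 CPM in transplanted rods and between 255 and 822 CPM in cultured rods, and between 46.1 and 128 CPM in transplanted cones and between 125 and 520.1 CPM in cultured cones. All 8 of these markers were detected in every rod and cone sum. The host (dog) filter dropped cells whose share of UMIs from genes named after clones was under percentile 1 of the Set's cultured sample. It dropped most in transplanted Set 3, at 8.38% of rods, 19.25% of cones and 15.3% of other cells. In cultured Set 3 these shares were 0.565%, 0.794% and 1.16%. Other cells held 0.212, 54.3 and 161 CPM of 4 red blood cell markers in transplanted Sets 1, 2 and 3. The cultured values were 0.215, 0.589 and 3.63 CPM.

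All 10 genes were higher in rods than in other cells and higher in cones than in other cells. The difference was largest for ROM1 in rods, at 3.72 ± 0.28 log2 units (SE, here and beside every log2 value), and for IMPG1 in cones, at 2.67 ± 0.22. It was smallest for PROM1 in rods, at 0.96 ± 0.15, and for PCARE in cones, at 1.07 ± 0.19. The test was the quasi-likelihood test of edgeR on UMIs summed per sample and class, with the sample as a block. P-values were adjusted by Benjamini-Hochberg over all 19273 genes tested. The 6 samples come from 3 Sets, and the fit held no term for class by Set, so it treats samples of a Set as independent. The ratio of IMPG1 in cones over other cells was 11.8, 3.07 and 2.94 in transplanted Sets 1, 2 and 3. It was 11.6, 8.83 and 3.58 in cultured Sets 1, 2 and 3. Adjusted p lay between 1.67e-07 (ROM1) and 0.00233 (RP1L1) for rods and between 1.39e-07 (IMPG2) and 0.000377 (PCARE) for cones. A call means an adjusted p under 0.05. Of all genes, 35.3% were called between rods and other cells, 14.9% higher and 20.4% lower in rods. Between cones and other cells 39.8% were called, 17.2% higher and 22.7% lower in cones. The median difference of the 10 genes was 1.86 for rods and 1.87 for cones, beside -0.05 and -0.08 over all genes tested. Without the sample as a block 5 of the 10 were called in rods and 6 of the 10 in cones. In the printed level, other cells exceeded rods in 1 sample for RP1L1, and exceeded cones in 1 sample for ROM1 and 2 samples for PCARE.

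**Figure D1:**
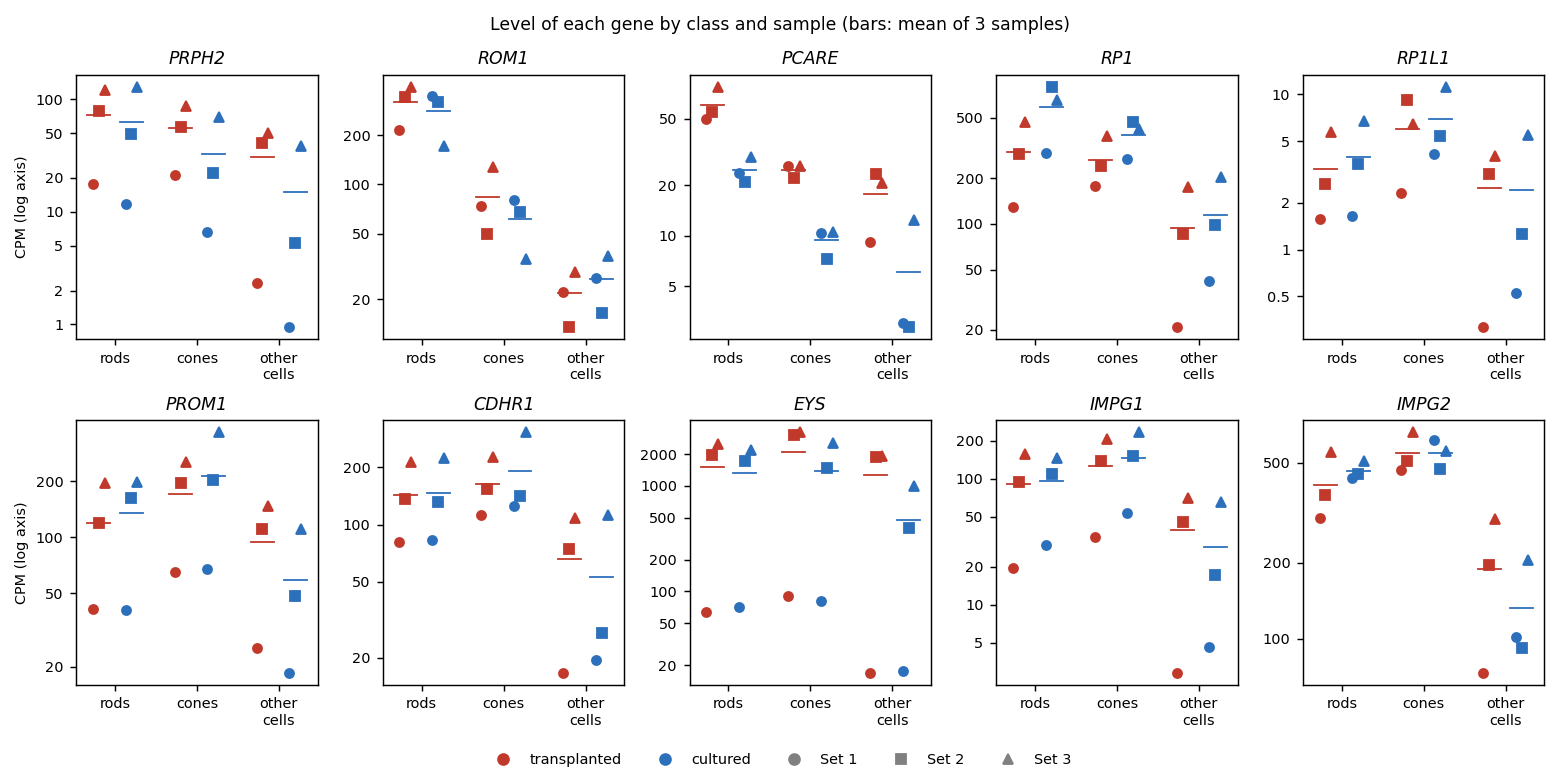
Level of each gene in CPM (log axis) in rods, cones and other cells. Red marks are transplanted and blue marks cultured samples, symbols give the Set and short bars the mean of 3 samples. The Set 1 circles are the lowest of their group in every class for PRPH2, RP1, RP1L1, PROM1, CDHR1, EYS and IMPG1. The red PCARE points lie above the blue ones in rods and in cones.

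The disc rim proteins differed in how sharply they separated rods from cones. PRPH2 (ENSG00000112619, chr6:42696600-42722574), which shapes the rim, had 17.7, 78.6 and 120.4 CPM in rods of transplanted Sets 1, 2 and 3, against 11.7, 49.0 and 129.7 CPM in rods of cultured Sets 1, 2 and 3. Cones had 21.3, 57.2 and 87.9 CPM in the transplanted samples, against 6.65, 22.4 and 69.3 CPM in the cultured samples. In other cells the transplanted samples had 2.33, 40.7 and 49.8 CPM, against 0.952, 5.34 and 38.4 CPM in the cultured samples. Levels in every class were lowest in Set 1 and highest in Set 3, so the groups overlapped in each class although cones and other cells were higher in the transplanted sample of 3 of 3 Sets.

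ROM1 (ENSG00000149489, chr11:62611722-62615120), the partner of PRPH2 at the rim, had 215, 343 and 395 CPM in rods of transplanted Sets 1, 2 and 3, against 348, 319.6 and 172 CPM in rods of cultured Sets 1, 2 and 3. The cone levels were 73.7, 49.8 and 128 CPM in the transplanted samples, against 80.4, 68.3 and 34.96 CPM in the cultured samples. In other cells it stayed between 13.6 and 29.4 CPM in the transplanted samples and between 16.5 and 36.6 CPM in the cultured samples. Every rod sum was above every cone sum, and every cone sum but 1 was above the other cells of its own sample.

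ROM1 was 2.01 ± 0.26 log2 units higher in rods than in cones (adjusted p = 0.000338 by edgeR, higher in 6 of 6 samples, within-sample ratio 2.91 to 6.89). PRPH2 did not pass the same test, at 0.54 ± 0.26 (adjusted p = 0.338, higher in 5 of 6 samples). In the rod and cone comparison 4.39% of 19273 genes were called, 1.39% higher and 3% lower in rods. Since NRL and PDE6H set the classes, their own difference is not a result. EML3, which overlaps ROM1 exons on the opposite strand, averaged 9.51 CPM over rod and cone sums and was itself 0.74 ± 0.15 higher in rods (adjusted p = 0.00767).

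PCARE (ENSG00000179270, chr2:29060976-29074261), an actin-associated protein of the ciliary base where discs start, had 49.9, 54.8 and 77.9 CPM in rods of transplanted Sets 1, 2 and 3, against 23.9, 21.0 and 29.7 CPM in rods of cultured Sets 1, 2 and 3. Among cones the values were 26.3, 22.1 and 26.3 CPM in the transplanted samples, against 10.4, 7.28 and 10.6 CPM in the cultured samples. In other cells the transplanted samples had 9.26, 23.5 and 20.7 CPM, against 3.01, 2.87 and 12.4 CPM in the cultured samples. The groups did not overlap in rods or in cones, and in other cells they overlapped only through cultured Set 3 and transplanted Set 1.

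PCARE was the 1 gene of the 10 called between transplanted and cultured samples. In rods it rose by 1.44 ± 0.21 log2 units, or 2.70-fold (adjusted p = 0.00149, edgeR with the Set as a block, higher in 3 of 3 Sets). In cones it also rose by 1.44 ± 0.27, or 2.71-fold (adjusted p = 0.0272, higher in 3 of 3 Sets). In other cells the difference was 1.78 ± 0.37 and missed the threshold (adjusted p = 0.115), also higher in 3 of 3 Sets. Of 17978 genes tested in rods, 4.42% were called, with 2.18% higher in transplanted samples and 2.24% lower. In cones 0.556% of 17620 were called, 0.238% higher and 0.318% lower, and in other cells 0.212% of 20298, 0.123% higher and 0.0887% lower.

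The difference of PCARE between the rod and the cone response was -0.08 ± 0.29 log2 units (adjusted p = 1), where 0.0321% of 21820 genes were called, 0.0183% higher and 0.0137% lower in the rod response. Without the Set as a block no gene was called in any of these comparisons, and PCARE stood at 1.42 in rods and 1.46 in cones with an adjusted p of 1 in both. The call in cones rested on few molecules in places, with 12 PCARE UMIs in transplanted Set 2 and 16 in cultured Set 3. It was lost without Set 1 (1.53, adjusted p = 0.150) and without Set 2 (1.42, adjusted p = 0.131), with classes set at 2 UMIs (1.42, adjusted p = 0.0560) and with thinned cells (1.35, adjusted p = 0.0808), while the rod call held without each Set in turn.

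Rods and cones that held no UMI of the dividing progenitor markers gave a PCARE change of 1.48 in rods (adjusted p = 0.000971) and 1.26 in cones (adjusted p = 0.00603), an alternative chosen after seeing the data. TOGARAM2, which overlaps PCARE exons on the opposite strand and averaged 6.19 CPM over rod and cone sums, rose by 1.16 ± 0.32 in transplanted rods (adjusted p = 0.0469) and stood at 0.84 ± 0.43 in cones (adjusted p = 0.478). Whether reads of the pair were told apart by strand is not given in the sources used here. The median mitochondrial share of UMIs in rods was 4.35%, 3.39% and 3.26% in transplanted Sets 1, 2 and 3, against 1.72%, 2.88% and 1.12% in cultured Sets 1, 2 and 3. The part of this share in the PCARE difference was not tested.

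PCARE also separated the classes. It was 1.24 ± 0.18 log2 units higher in rods than in cones (adjusted p = 0.000691), with a ratio between 1.90 and 2.97 within the 6 samples. On the fitted scale the order was rods, then cones, then other cells, with both steps past the threshold, while cone and other cell levels overlapped in the samples.

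**Figure D2:**
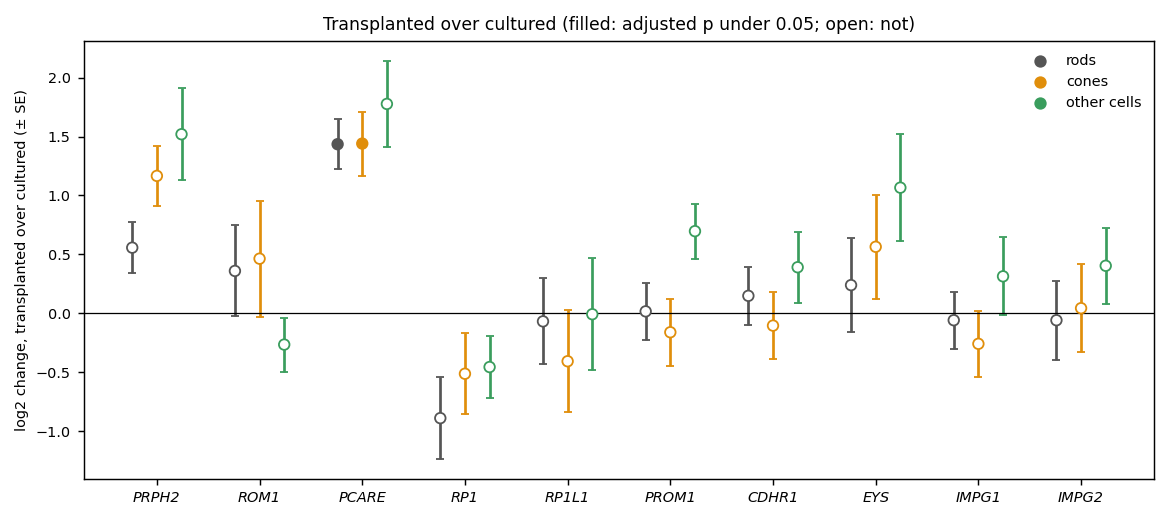
Fitted log2 change of each gene, transplanted over cultured, in rods, cones and other cells, with the standard error derived from the edgeR F statistic. PCARE in rods and in cones are the only filled points, and the RP1 points lie below 0 in all 3 classes.

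The share of cells with a PCARE UMI moved with its level. After every cell was thinned to 1000 UMIs, 8.45%, 11.2% and 11.1% of rods held one in transplanted Sets 1, 2 and 3, against 3.23%, 4.20% and 3.95% of rods in cultured Sets 1, 2 and 3. In cones the share averaged 3.48% ± 0.463 in transplanted and 0.994% ± 0.496 in cultured samples (SD, n = 3 each), and in other cells without any UMI of CRX, NRL or PDE6H it averaged 2.34% ± 1.45 in transplanted and 0.179% ± 0.0559 in cultured samples. The share of the last group was higher in the transplanted sample of 3 of 3 Sets. This group may still hold photoreceptors, since a shallow cell can miss all 3 genes. In transplanted Set 3 its median depth was 1704 UMIs. There 76.3% of its thinned cells held an EYS UMI, against 87.3% of the rods. In transplanted Set 2 the PCARE share of this group reached 3.41% (95% Wilson interval 1.86% to 6.17%), above the 2.94% of the 34 cones. The cone share there cannot be told from that of this group. In transplanted Set 3 the cone share of 3.75% (2.29% to 6.09%) and that of this group, 2.92% (2.10% to 4.06%), also had overlapping intervals. In transplanted Set 1 the intervals did not overlap, at shares of 3.74% and 0.684%. The rod shares exceeded that of this group in 6 of 6 samples. No cell was too shallow to be thinned, since the cell filter already asked for 1000 UMIs. At full depth 27.9%, 58.2% and 50.8% of rods in transplanted Sets 1, 2 and 3 held a PCARE UMI, against 9.50%, 25.4% and 17.5% in cultured Sets 1, 2 and 3. Intervals cover counting error only.

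**Figure D3:**
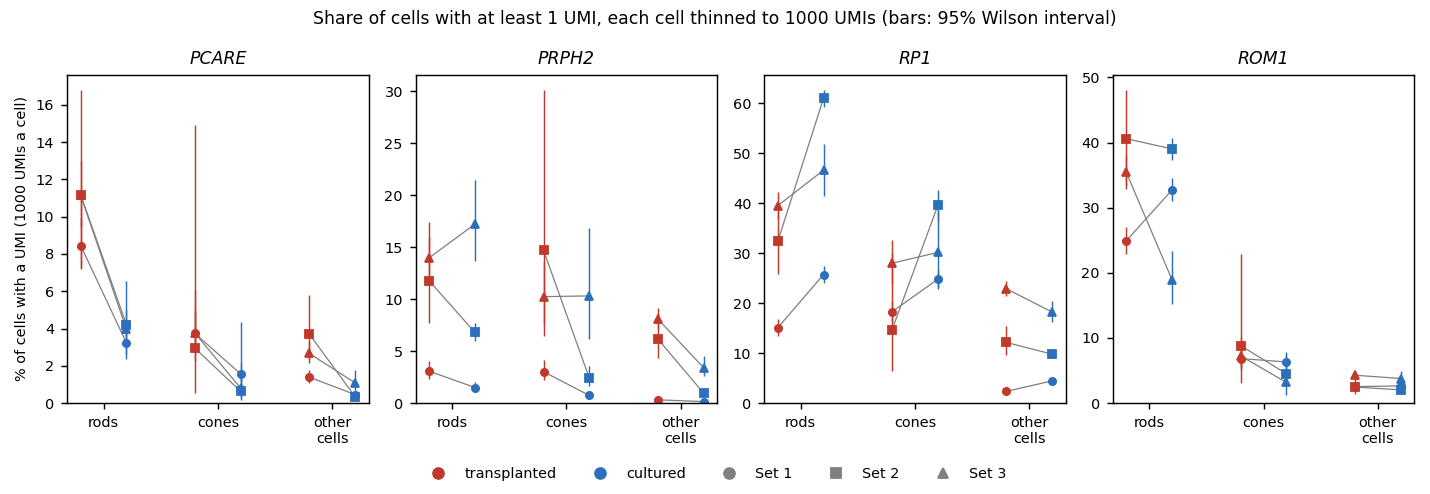
Share of cells with at least 1 UMI of PCARE, PRPH2, RP1 and ROM1 after thinning each cell to 1000 UMIs, in rods, cones and other cells of each sample, with 95% Wilson intervals. Grey lines join the transplanted and the cultured sample of a Set, and the PCARE lines run down from transplanted to cultured in all 3 classes.

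PRPH2 came closest to PCARE among the genes that were not called. Its change was 0.56 ± 0.22 log2 units in rods (adjusted p = 0.156, higher in 2 of 3 Sets), 1.17 ± 0.26 in cones (adjusted p = 0.0581) and 1.52 ± 0.39 in other cells (adjusted p = 0.207). The response in rods minus that in cones was -0.66 ± 0.26 with an unadjusted p of 0.0170 and an adjusted p of 1. In cones PRPH2 passed the threshold without Set 3 (1.49, adjusted p = 6.32e-05) and under 5 further alternatives, among them the stricter purity of classes (1.29, adjusted p = 0.00538) and the host filter (1.21, adjusted p = 0.0132). ROM1 changed by 0.36 ± 0.39 in rods and 0.46 ± 0.49 in cones (adjusted p = 0.663 and 0.786), and its direction differed between Sets, with log2 differences of -0.69, 0.10 and 1.20 in the rods of Sets 1, 2 and 3. Without Set 3 the ROM1 value was -0.22 in rods and -0.29 in cones.

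RP1 was lower in the transplanted samples without a call. RP1 (ENSG00000104237, chr8:54509422-54871720), a doublecortin-domain protein that binds axonemal microtubules, had 128, 288 and 470.4 CPM in rods of transplanted Sets 1, 2 and 3, against 294, 802 and 658 CPM in rods of cultured Sets 1, 2 and 3. In cones it had 177, 242 and 376 CPM in the transplanted samples, against 268, 467 and 421 CPM in the cultured samples. In other cells the transplanted samples had 21.0, 85.8 and 174 CPM, against 41.8, 98.4 and 203 CPM in the cultured samples. Within each Set the transplanted value was the lower one in every class, and the groups overlapped in each class because the Sets lay far apart.

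The RP1 change was -0.89 ± 0.35 log2 units in rods (adjusted p = 0.159), -0.51 ± 0.35 in cones (adjusted p = 0.628) and -0.46 ± 0.27 in other cells (adjusted p = 0.607). In rods it passed the threshold with DESeq2 (-0.90, adjusted p = 0.0302) and without Set 3 (-1.26, adjusted p = 0.0382). The share of thinned rods with an RP1 UMI was 15.1%, 32.4% and 39.5% in transplanted Sets 1, 2 and 3, against 25.7%, 61.0% and 46.6% in cultured Sets 1, 2 and 3. Rods minus cones gave 0.24 ± 0.20 log2 units for RP1 (adjusted p = 0.672, higher in rods in 5 of 6 samples).

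RP1L1 (ENSG00000183638, chr8:10606349-10712187), the paralog of RP1, was counted sparsely. It had 1.56, 2.64 and 5.71 CPM in rods of transplanted Sets 1, 2 and 3, against 1.64, 3.57 and 6.69 CPM in rods of cultured Sets 1, 2 and 3. Cones had 2.30, 9.22 and 6.42 CPM in the transplanted samples, against 4.13, 5.39 and 11.2 CPM in the cultured samples, with 5 UMIs behind the value of transplanted Set 2. It was lower in rods than in cones of all 6 samples, by a fitted -0.80 ± 0.24 that missed the threshold (adjusted p = 0.0787). The threshold was passed with DESeq2 (-0.84, adjusted p = 0.0403), the stricter purity of classes (-1.08, adjusted p = 0.0128) and the stricter cell filter (-0.81, adjusted p = 0.0460). Its changes between transplanted and cultured samples were -0.07 ± 0.37 in rods, -0.41 ± 0.43 in cones and -0.01 ± 0.48 in other cells.

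PROM1 was lower in rods than in cones, and CDHR1, which like it acts at the base of the outer segment where discs form, did not pass the test. PROM1 (ENSG00000007062, chr4:15963076-16084378), a cholesterol-binding membrane protein of protrusions that is also known from stem and progenitor cells, had 41.0, 119.7 and 196 CPM in rods of transplanted Sets 1, 2 and 3, against 40.4, 163 and 199 CPM in rods of cultured Sets 1, 2 and 3. The cone levels were 64.8, 195 and 255 CPM in the transplanted samples, against 67.5, 204 and 367 CPM in the cultured samples. PROM1 was lower in rods than in cones in 6 of 6 samples, by -0.64 ± 0.15 log2 units (adjusted p = 0.0173). That call was lost without Set 1 (-0.60, adjusted p = 0.136) and without Set 3 (-0.60, adjusted p = 0.311).

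Between transplanted and cultured samples PROM1 differed by 0.02 ± 0.24 in rods and by -0.16 ± 0.28 in cones (adjusted p = 0.982 and 0.881). In other cells it had 25.3, 110.5 and 148 CPM in transplanted Sets 1, 2 and 3, against 18.6, 48.3 and 110.5 CPM in cultured Sets 1, 2 and 3, a difference of 0.70 ± 0.23 in 3 of 3 Sets that was not called (adjusted p = 0.344). The summed level of 8 Müller glia markers in other cells was 928, 523 and 317 CPM in transplanted Sets 1, 2 and 3, against 569, 368 and 211 CPM in cultured Sets 1, 2 and 3, and its part in the PROM1 difference was not tested. CDHR1 (ENSG00000148600, chr10:84194635-84219621), a photoreceptor cadherin at the edge of nascent discs, had 81.0, 136 and 213 CPM in rods of transplanted Sets 1, 2 and 3, against 83.0, 131 and 224 CPM in rods of cultured Sets 1, 2 and 3. Among cones the values were 112, 153 and 227 CPM in the transplanted samples, against 125, 142 and 305 CPM in the cultured samples. The groups overlapped in rods and in cones, and the fitted change was 0.15 ± 0.25 in rods, -0.10 ± 0.28 in cones and 0.39 ± 0.30 in other cells, none called. Rods minus cones gave -0.35 ± 0.17 for CDHR1 (adjusted p = 0.355, lower in rods in 6 of 6 samples), and -0.55 with the stricter purity of classes (adjusted p = 0.0367). Other cells had 16.7, 74.1 and 108 CPM of CDHR1 in transplanted Sets 1, 2 and 3, against 19.5, 26.8 and 113 CPM in cultured Sets 1, 2 and 3, so that Set 2 alone was higher in the transplanted sample.

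The extracellular members showed no called change. EYS (ENSG00000188107, chr6:63719980-65707225), a secreted protein needed to keep photoreceptors intact in primates, had 63.3, 1975 and 2473 CPM in rods of transplanted Sets 1, 2 and 3, against 71.6, 1713 and 2183 CPM in rods of cultured Sets 1, 2 and 3. In cones it had 90.0, 3005 and 3210.0 CPM in the transplanted samples, against 81.1, 1461 and 2559 CPM in the cultured samples. In other cells the transplanted samples had 16.9, 1884 and 1916 CPM, against 17.6, 399 and 1004 CPM in the cultured samples. Set 1 was far below Sets 2 and 3 in both groups and in every class. PHF3, which overlaps EYS exons on the opposite strand, averaged 117 CPM over rod and cone sums. The fitted change was 0.24 ± 0.40 in rods, 0.56 ± 0.44 in cones and 1.07 ± 0.45 in other cells (adjusted p = 0.796, 0.681 and 0.468).

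The gap between Sets is a property of several of the 10 genes. The mean of Sets 2 and 3 over the value of Set 1 in rods was 35.1 for EYS in transplanted and 27.2 in cultured samples, where the median over 10617 genes was 1.198 in transplanted and 1.30 in cultured samples. The same ratio was 5.62 in transplanted and 7.66 in cultured rods for PRPH2, 6.39 and 4.25 for IMPG1, and 3.85 and 4.49 for PROM1. For IMPG2 it was 1.53 and 1.09, and for PCARE 1.33 and 1.06. EYS spans 1987 kb of the genome, IMPG1 151.6 kb, PROM1 121.3 kb, PRPH2 25.98 kb, PCARE 13.3 kb and ROM1 3.399 kb. The ROM1 ratio was 1.72 in transplanted and 0.707 in cultured rods. IMPG2 has a longer span than PRPH2 and had the lower ratio in both groups. RP1 spans 362 kb, and its ratio was 2.96 in transplanted and 2.48 in cultured rods, below that of PRPH2 in both. CDHR1, at 24.99 kb close to PRPH2 in span, had 2.16 and 2.14. In rods, the median share of UMIs from genes named after clones was 0.73%, 2.24% and 2.69% in transplanted Sets 1, 2 and 3. In rods of cultured Sets 1, 2 and 3 it was 0.723%, 2.15% and 4.05%. The parts of span and of this share in the gap between Sets were not tested. The file headers name Cell Ranger 6.0.2 for Set 1 and 7.1.0 for the later Sets, so the software version and the experiment cannot be told apart. Both samples of a Set share a version, and the comparisons above are within Sets.

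IMPG1 and IMPG2 are proteoglycans of the interphotoreceptor matrix, the gel around the outer segments, and IMPG2 is anchored in the membrane. IMPG1 (ENSG00000112706, chr6:75921115-76072678) had 19.7, 94.9 and 157 CPM in rods of transplanted Sets 1, 2 and 3, against 29.99, 109 and 146 CPM in rods of cultured Sets 1, 2 and 3. Cones had 34.5, 138 and 206 CPM in the transplanted samples, against 53.6, 152 and 233 CPM in the cultured samples. IMPG1 was lower in rods than in cones in 6 of 6 samples, by -0.66 ± 0.20, just outside the threshold (adjusted p = 0.0793). It passed with the stricter purity of classes (-0.98, adjusted p = 0.00293).

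IMPG2 (ENSG00000081148, chr3:101222546-101320560) had 302, 373 and 549.5 CPM in rods of transplanted Sets 1, 2 and 3, against 436, 449 and 506 CPM in rods of cultured Sets 1, 2 and 3. The cone levels were 466, 509 and 659.5 CPM in the transplanted samples, against 613, 470.1 and 557 CPM in the cultured samples. The groups overlapped in both classes, and the changes were -0.06 ± 0.33 in rods and 0.04 ± 0.37 in cones. IMPG2 was lower in rods than in cones in 6 of 6 samples, by -0.37 ± 0.16 (adjusted p = 0.281), and by -0.54 with the stricter purity of classes (adjusted p = 0.0243). IMPG1 changed by -0.06 ± 0.24 in rods and -0.26 ± 0.28 in cones. In other cells IMPG1 had 2.91, 45.1 and 70.0 CPM in transplanted Sets 1, 2 and 3, against 4.61, 17.2 and 65.1 CPM in cultured Sets 1, 2 and 3. IMPG2 had 73.3, 196 and 298 CPM in other cells of the transplanted samples, against 101, 91.7 and 205 CPM in those of the cultured samples. Both were higher in the transplanted sample of Sets 2 and 3 and lower in that of Set 1, with fitted changes of 0.31 ± 0.33 and 0.40 ± 0.32 that were not called.

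**Figure D4:**
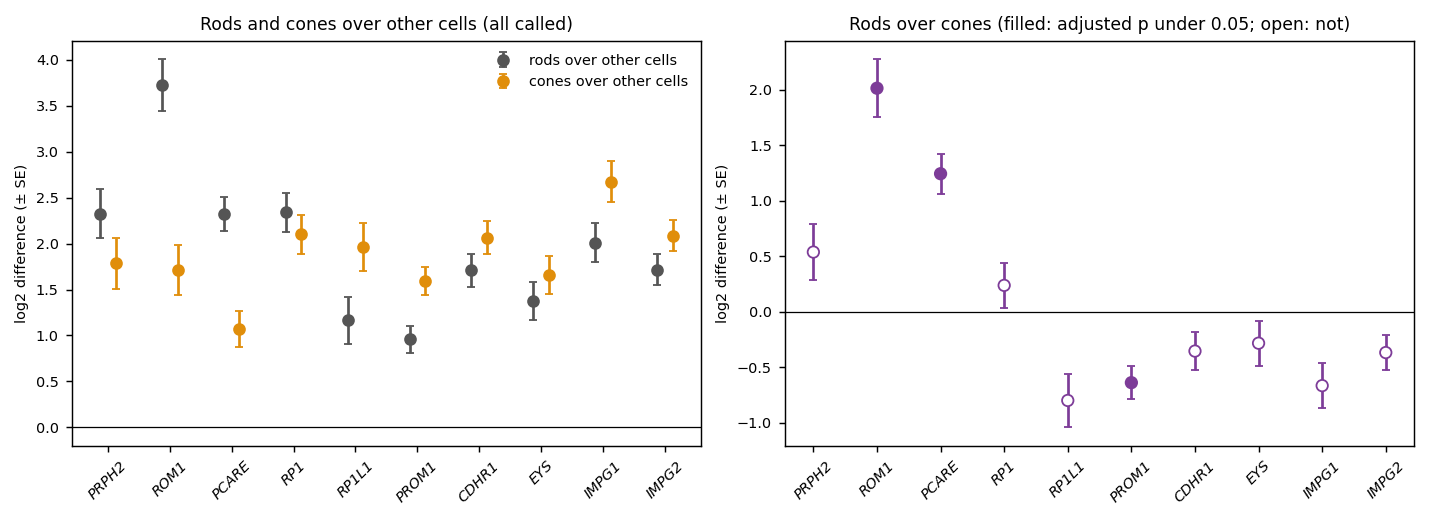
Fitted log2 differences between classes with standard errors, rods and cones over other cells on the left and rods over cones on the right. All left points lie above 0, while on the right ROM1 and PCARE lie above 0 and PROM1 below 0 as filled points.

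Over the 10 genes, 1 was called higher and 0 lower in transplanted rods, and the same counts held in cones. None of the 10 was called in other cells, where 4 of the 10 had an unadjusted p under 0.05 by edgeR. None was called for the difference between the rod and cone responses, where 1 of the 10 had. Over all genes tested, 2031 of 20298 in other cells and 918 of 21820 in the response difference had such a p. The median change was 0.08 in rods, -0.03 in cones and 0.40 in other cells, beside -0.02, -0.03 and -0.02 over all genes tested. DESeq2 called no gene of the 10 in the response difference, and PCARE and PRPH2 in other cells (1.79 and 1.53, adjusted p = 0.00665 and 0.0421). In other cells without a UMI of CRX, NRL or PDE6H the PCARE change was 2.58 (adjusted p = 0.0171) and the PRPH2 change 1.92 (adjusted p = 0.0312). Cells led by the photoreceptor precursor markers made up 9.47%, 14.8% and 25.6% of other cells in transplanted Sets 1, 2 and 3, against 6.49%, 8.46% and 18.6% in cultured Sets 1, 2 and 3, a larger share in the transplanted sample of each Set. Their part in these differences was not tested, and in such sums more cells of a type and more RNA per cell cannot be told apart.

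Within the other cells, levels were given for cells led by 1 marker list, meaning at least 3 of its markers and more than of any other list, in samples with at least 20 such cells. That gating rule was chosen after the data had been seen. Cells led by the photoreceptor precursor markers (CRX, RCVRN, PRDM1, OTX2, AIPL1) had members near the rod and cone levels, with a median over 6 samples of 493 CPM of IMPG2, 269 CPM of RP1, 35.8 CPM of PCARE and 51.9 CPM of PRPH2. ROM1 in these cells, at 58.0 CPM, was near the cone median of 71.0 CPM and below the rod median of 331 CPM. PCARE was at 0 to 1.11 CPM in cells led by horizontal cell markers (5 samples) and at 0.422 to 10.8 CPM in those led by Müller glia markers (4 samples).

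UMIs of several of the genes were also counted outside the photoreceptor gates, where free RNA was not told apart from expression. The bipolar gate reached 20 cells only in transplanted Set 3 and cultured Sets 2 and 3. There PROM1 had 131 CPM in bipolar-led cells of transplanted Set 3, against 70.2 and 160 CPM in those of cultured Sets 2 and 3. Precursor-led cells of the same samples had 271 CPM in transplanted Set 3, against 148 and 234 CPM in cultured Sets 2 and 3, higher than the bipolar-led cells in 3 of 3 samples. The median of IMPG2 was 135 CPM and that of RP1 86.2 CPM in bipolar-led cells, and RP1L1 had a median of 0 in 6 of the 7 other gates plotted beside the precursors and 0.378 CPM in amacrine-led cells. These are descriptions of gated cells without a test.

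**Figure D5:**
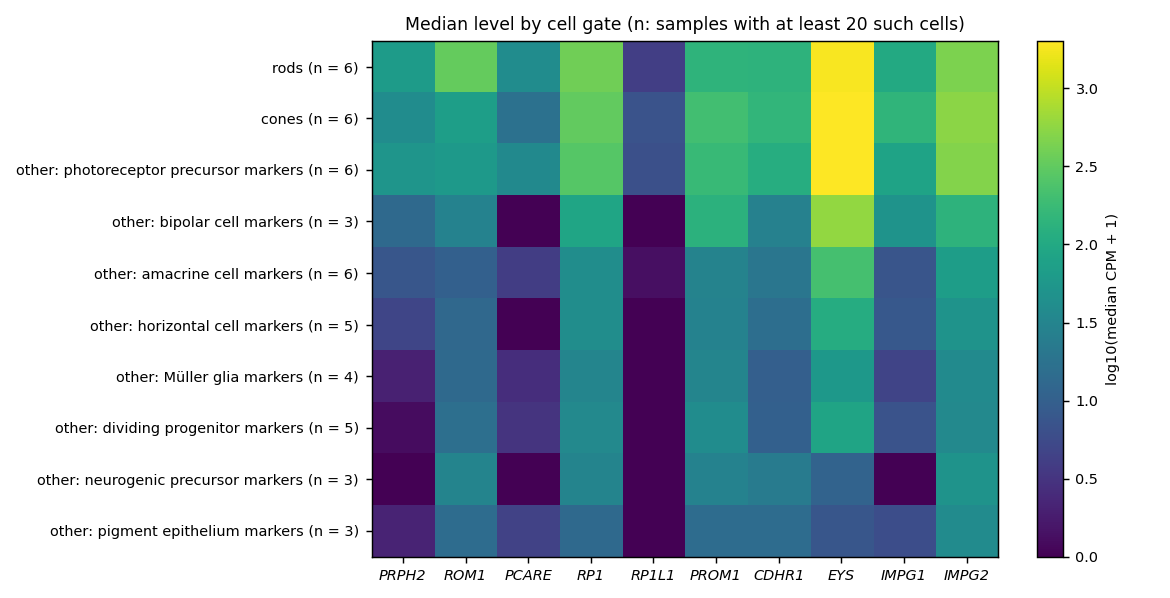
Median level of each gene, as log10 of CPM plus 1, in rods, cones and other cells led by 1 marker list, with n the number of samples that held at least 20 such cells. The row of photoreceptor precursor markers resembles the rod and cone rows, apart from ROM1, and the bipolar row holds no Set 1 sample.

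The pattern across classes was compared for 9 of the genes, since RP1L1 was below the 10 CPM asked for. Over the 18 sums of 6 samples and 3 classes, with each sample's mean removed, log2(CPM + 1) of CDHR1 correlated with that of IMPG1 and of IMPG2 at r = 0.994 each. ROM1 and PCARE correlated at 0.930, and ROM1 and PROM1 at 0.418, the lowest of the pairs among these 9. The sums of a sample share a library and the classes share a gate, so these values are descriptions only. By the same measure among 10939 genes, PCARE was most like NR2E3 (0.985), PDE6B (0.966) and CNGB1 (0.964), all known from rods, and ROM1 was most like AANAT (0.983) and CABP5 (0.960). IMPG2 was most like ASIC4 (0.997) and CRX (0.994), RP1 like TMEM244 (0.987), and PRPH2 like MAP3K13 (0.979) and ARL6 (0.977).

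A rod held more of the 10 genes than another cell at equal depth. Thinned to 1000 UMIs, a rod held on average 2.21 ± 0.82 of the 10, a cone 1.92 ± 0.59 and another cell 0.93 ± 0.69 (mean and SD over 6 samples). Other cells without a UMI of CRX, NRL or PDE6H still held 0.77 ± 0.71, between 0.0992 and 1.90 per sample, and may include photoreceptors. EYS was found in 76.3% of these cells in transplanted Set 3, against 87.3% of the rods of the same sample. Without thinning a rod held 5.17 of the 10.

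Genes with related functions were read from 5 lists. Of 11 further disc and rim genes, 8 were tested, and 7 were higher in rods and 7 in cones than in other cells, among them TULP1 (2.004 ± 0.14 in rods and 2.53 ± 0.15 in cones), a trafficking protein, and PRCD, a small disc protein (1.74 ± 0.24 in rods and 1.80 ± 0.24 in cones). Of 20 connecting cilium and axoneme genes, 10 were higher in rods and 10 in cones, and of 30 ciliary transport genes 15 and 13, with medians of 0.31 and 0.29 in rods and 0.32 and 0.22 in cones. Beside these counts stand 14.9% of all genes higher and 20.4% lower in rods, 17.2% higher and 22.7% lower in cones, and all-gene medians of -0.05 in rods and -0.08 in cones. Of 10 tested Usher and calyceal genes 3 were higher and 1 lower in rods, and of 7 tested interphotoreceptor matrix genes 3 were higher and 1 lower. In cones 6 of the Usher and calyceal genes were higher and 2 lower, and 3 of the matrix genes were higher and 2 lower, with a matrix median of -0.12. RBP3, the retinoid carrier of that matrix, was 3.001 ± 0.21 log2 units higher in rods.

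Between transplanted and cultured rods 1 of 8 disc and rim genes, 1 of 10 Usher and calyceal genes and 1 of 7 matrix genes were called, beside 4.42% of all genes, and in cones 1 of 8 disc and rim genes, beside 0.556%. PRCD averaged 63.0 ± 21.9 CPM in transplanted rods and 32.1 ± 3.27 CPM in cultured rods (SD, n = 3 each), a rise of 1.07 ± 0.25 (adjusted p = 0.0233). VCAN, a matrix proteoglycan, averaged 25.2 ± 10.5 CPM in transplanted and 79.0 ± 17.5 CPM in cultured rods (-1.51 ± 0.27, adjusted p = 0.00619), and PCDH15, a cadherin of the calyceal processes, averaged 5.95 ± 4.32 CPM in transplanted and 21.2 ± 18.3 CPM in cultured rods (-1.37 ± 0.29, adjusted p = 0.0135). VCAN averaged 25.5 ± 4.19 CPM in transplanted and 62.0 ± 24.8 CPM in cultured cones, and 46.8 ± 10.7 and 95.9 ± 19.4 CPM in other cells. PCDH15 averaged 4.43 ± 3.22 CPM in transplanted and 13.4 ± 10.7 CPM in cultured cones, and 28.7 ± 24.2 and 64.0 ± 53.8 CPM in other cells. By edgeR neither was called in cones or in other cells. PCDH15 and VCAN were lower in rods than in other cells, and the markers of dividing progenitors were also lower in transplanted rods. The summed level of 7 horizontal cell markers was 72.8 to 91.6 CPM in transplanted rods and 171 to 251 CPM in cultured rods, and 66.2 to 97.7 CPM in transplanted cones and 119 to 240 CPM in cultured cones. The part of other cells' RNA in the VCAN and PCDH15 differences in rods was not tested. In cones, CNGB1, a subunit of the rod cation channel, rose by 1.15 ± 0.23 (adjusted p = 0.0397), with 54.2 ± 30.3 CPM in transplanted and 27.2 ± 21.0 CPM in cultured cones. By edgeR 0 of 20 connecting cilium and axoneme genes were called in rods, where 3 had an unadjusted p under 0.05, and 0 of 20 in cones, where 2 had. By the same test 0 of 30 ciliary transport genes were called in rods and 0 of 30 in cones, with 2 under 0.05 in each, and DESeq2 called 1 of them higher in cones. In other cells edgeR called none of the 5 lists' genes, with 1 to 4 of each list under an unadjusted 0.05, and DESeq2 called 1 higher and 1 lower, both Usher and calyceal genes. Of all genes, 3468 of 17978 in rods and 2002 of 17620 in cones had an unadjusted p under 0.05 by edgeR. In other cells 2031 of 20298 had.

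Between rods and cones, CNGB1 (1.11 ± 0.30), FAM161A (0.40 ± 0.11), a protein of the ciliary base, and BBS9 (0.48 ± 0.12), a subunit of the BBSome, were higher in rods. TULP1 (-0.52 ± 0.14), CC2D2A (-0.52 ± 0.11), a transition zone protein, and CDH23 (-1.19 ± 0.20), a cadherin of the Usher group, were lower in rods. Adjusted p for these 6 lay between 0.00205 and 0.0471 by edgeR. Among 8 disc and rim genes tested, 1 was called higher and 1 lower in rods. Among 20 connecting cilium and axoneme genes it was also 1 and 1. Of 30 ciliary transport genes 1 was higher, of 10 Usher and calyceal genes 1 was lower, and of 7 matrix genes 0 were called. Beside these counts, 1.39% of all genes were called higher and 3% lower in rods.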

How the data were processed

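Single cells were profiled with the 10x Genomics 3' v3.1 assay, per the labels' protocols. The authors deposited filtered matrices of whole-number UMI counts made with Cell Ranger 6.0.2 (Set 1) and 7.1.0 (Sets 2 and 3), per the file headers, on GRCh38, per the submitters' processing notes; whether introns were counted is not given in the sources used here. Cells were kept with at least 1000 UMIs, 500 genes and at most 20% mitochondrial UMIs. The automatic threshold of Scrublet marked almost no cell, so the highest doublet scores were removed at 0.8% per 1000 cells. Raw counts were summed per sample and class, filtered (filterByExpr), scaled (TMM) and fitted with edgeR 4.0.16 (glmQLFit and glmQLFTest, robust, R 4.3.3), with the Set as a block between transplanted and cultured samples and the sample as a block between classes. Each SE beside an edgeR log2 value is that absolute value divided by the square root of the F statistic of its test. Benjamini-Hochberg adjustment covered all genes tested. The design draws both samples of a Set from 1 batch, and the deviations of paired samples correlated at 0.281 to 0.925. DESeq2 1.42.0 was an alternative. The fit was tested on simulated data. Wilson intervals have 95% confidence. Gene positions are from GENCODE v29 (34616 of 36601 IDs matched). The 10 genes and all lists were chosen with earlier results of these data known. All 10 were named, with up to 4 called genes of smallest p per list and comparison, and genes from the 3 most correlated with each of the 10. Some results are not reported here.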

Additional observations from a re-analysis of the deposited data

Results flagged for a closer look

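PROM1 differed in sign between 2 classes, and neither change was called. In other cells it was higher in the transplanted sample of every Set, by a mean log2 difference of 0.67 (0.43, 1.18 and 0.41 in Sets 1, 2 and 3). In cones it was lower in the transplanted sample of every Set, by a mean of -0.22 (-0.06, -0.06 and -0.53 in Sets 1, 2 and 3). The response in other cells minus that in cones was 0.79 ± 0.20 in the edgeR fit, with an adjusted p of 0.0966 that missed the threshold.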

How the results depend on the processing

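Of 1003 values of the 10 genes recomputed under another setting, 918 kept their direction and side of the threshold, 21 lost a call, 28 gained one and 36 changed sign. Those kept include other cells between transplanted and cultured samples with purer classes and without dividing marker UMIs, settings that do not alter other cells. Without the pairing of samples by Set (no replicate block) the counts of called genes were 0 in rods, cones and other cells between transplanted and cultured samples and 0 for the rod response minus the cone response (491, 315, 168 and 305 genes with an unadjusted p under 0.05), and 348 for rods and 711 for cones against other cells and 1 for rods against cones. In transplanted against cultured rods the count was 356 with purer classes, 243 thinned, 1283 with the host filter, 382 without cells holding dividing marker UMIs and 299 to 1028 with a Set left out. In cones it was 365 without a filter on low counts, 35 with classes set at 2 UMIs, 251 purer, 268 with the host filter, 438 without dividing marker UMIs and 6 to 502 with a Set left out. In other cells it was 219 with DESeq2, 378 unfiltered, 72 at 2 UMIs, 66 at 5 UMIs, 242 thinned, 142 with the host filter, 155 without UMIs of CRX, NRL or PDE6H and 6 to 414 with a Set left out. Thinning gave 3120 for rods and 3926 for cones against other cells, with 3218 to 7207 and 4214 to 6820 when a Set was left out. Rods against cones gave 2660 purer, 1566 without dividing marker UMIs and 104 to 641 with a Set left out. The response difference gave 2 with DESeq2, 64 unfiltered, 51 purer, 2 with doublets kept, 20 without dividing marker UMIs and 23 to 41 with a Set left out. The mean number of the 10 genes in a rod was 5.17 without thinning. Log2 values changed sign in the following cases: in rods RP1L1 0.33 (purer), PROM1 -0.0021 (5 UMIs), IMPG1 0.13 (no block) and 0.0022 (purer) and IMPG2 0.048 (thinned); in cones IMPG2 -0.13 (thinned) and -0.16 (no dividing marker UMIs); in other cells RP1L1 0.015 (DESeq2), 0.0081 (unfiltered), 0.16 (no block), 0.27 (2 UMIs), 0.17 (stricter cell filter), 0.041 (host filter) and 0.90 (no UMIs of CRX, NRL or PDE6H). In the response difference they changed for ROM1 0.22 (purer), PCARE 0.025 (thinned) and 0.058 (no dividing marker UMIs), RP1L1 -0.13 (5 UMIs) and -0.40, IMPG1 -0.071 and IMPG2 0.0060 (no dividing marker UMIs) and IMPG2 0.13 (thinned). With a Set left out, values ran from -0.22 to 0.89 for ROM1, -0.18 to 0.036 for RP1L1, -0.14 to 0.18 for PROM1, -0.32 to 0.19 for IMPG1 and -0.32 to 0.17 for IMPG2 in rods; from -0.29 to 0.94 for ROM1 and -0.19 to 0.25 for IMPG2 in cones; from -0.44 to 0.28 for RP1L1, -0.054 to 0.68 for CDHR1 and -0.15 to 0.72 for IMPG1 in other cells; and from -0.46 to 0.087 for ROM1 and -0.16 to 0.048 for PCARE in the response difference. Without the block, rods against cones lost the calls of ROM1 (1.99), PCARE (1.28) and PROM1 (-0.62), and 5 of the 10 genes lost theirs in rods and 4 in cones against other cells. Also, ROM1 in cones against other cells was lost with purer classes (0.62, adjusted p = 0.105 by edgeR). The causes were not tested. RP1L1 gave no value when cells were thinned. Depth limits transplanted Set 2 most, whose cones summed to 542401 UMIs.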
